A study of Saccharomyces cerevisiae with 219 samples.

Results

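Transcript levels in stationary phase yeast exposed to menadione were compared with those in stationary phase yeast given a temperature upshift, at the same elapsed times of 1, 1.5, 2 and 2.5 h. The comparison held 16 of the 219 arrays of the series. These were 8 menadione arrays and 8 upshift arrays, with 2 arrays at each time in each course, and they were chosen by treatment and elapsed time and not by any measured value. Both courses used Saccharomyces cerevisiae, a MATα derivative of S288c with his3, leu2, lys2, trp1 and ura3 mutations. The cultures were grown for days in adenine-supplemented rich medium (YPD+A), past glucose exhaustion, and no carbon source was added during the menadione treatment. In the menadione course the oxidant was added to the culture, and in the upshift course the culture was moved to a higher temperature. The sample titles give only the times. Which course received which treatment was taken from the study's description of each set of arrays.

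RNA from each sample was labelled with Cy5 and hybridised against one common reference, an equal mixture of stationary phase and exponential phase RNA labelled with Cy3. A level below is the log2 ratio of sample to reference, less the median of that array. A level above 0 therefore marks a transcript higher, relative to the reference, than the median transcript on that array. Levels of one gene can be compared between arrays, while levels of different genes cannot, since each probe has its own response. In bulk RNA of this kind, fewer cells holding a transcript and less transcript per cell cannot be told apart. The study also describes stationary phase transcripts that resist RNA extraction. Less transcript and less extractable transcript cannot be told apart here either. Each treatment had its own time course, so the treatment and anything else that differed between the courses cannot be told apart. The sources do not say whether the 2 arrays at a time came from separate cultures, so the p-values measure the spread between arrays, with successive times of a course treated as independent.

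Menadione is a quinone that enzymes reduce to a radical and that oxygen then re-oxidises, which produces superoxide and, from it, hydrogen peroxide. It also reacts with glutathione and protein thiols. In growing budding yeast the factors Yap1 and Skn7 activate genes for thioredoxins, peroxiredoxins and quinone reductases after such exposure, and the pentose phosphate pathway supplies the NADPH that these enzymes consume. Heat acts through another factor, Hsf1, which activates the genes of the Hsp70, Hsp90 and Hsp104 chaperones that bind and refold unfolded proteins, while Msn2 and Msn4 activate a general stress programme that is also active as cells enter stationary phase.

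The arrays yielded between 4137 and 5241 usable genes in the menadione course and between 2767 and 4585 in the upshift course, of 5691 genes on the design. The mean was 4648.5 ± 423.8 (SD, n = 8) against 3847.6 ± 595.2 (SD, n = 8), with an exact two-sided permutation p of 0.00684 (0.0135 after Benjamini-Hochberg adjustment over 5 array properties). Levels were spread more widely over genes in the upshift arrays, with an SD over genes of 2.18 ± 0.17 (SD, n = 8) against 1.71 ± 0.121 (SD, n = 8, exact permutation p = 0.000311, adjusted 0.00155). One array stood apart, replicate 1 at 2.5 h of menadione. Its mean correlation over genes with the rest of its course was 0.598, against 0.788 to 0.83 for the other 7 menadione arrays and 0.931 to 0.946 for the upshift arrays. Of the 11 stationary phase markers on the array, the array medians lay between -0.93 and -0.12 in menadione and between 2.27 and 2.81 in the upshift, and between 1.87 and 2.34 in 6 arrays of the menadione course taken before menadione was added (T0). Of 7 markers of mating type a cells and of sporulation, 1 was measured in most arrays.

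At matched times the courses differed widely. Of 3209 genes measured on 6 or more arrays in both courses, 645 (20.1%) were higher in menadione and 674 (21.0%) were lower, by at least 2-fold and with a limma adjusted p under 0.05. Among them, 35 were at least 8-fold higher and 88 at least 8-fold lower. For 850 genes (26.5%) no array of one course lay within the range of the other. Most metallothionein, Hsp70 and Hsp90 transcripts tested were lower in menadione, and most quinone reductase and peroxiredoxin transcripts tested were higher, as were single genes of the pentose phosphate pathway. Without replicate 1 at 2.5 h of menadione, 624 genes were higher and 650 were lower. These fits treat successive times of a replicate series as independent. With the mean of each replicate series as the unit, 484 genes were higher and 549 lower.

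**Figure D1:**
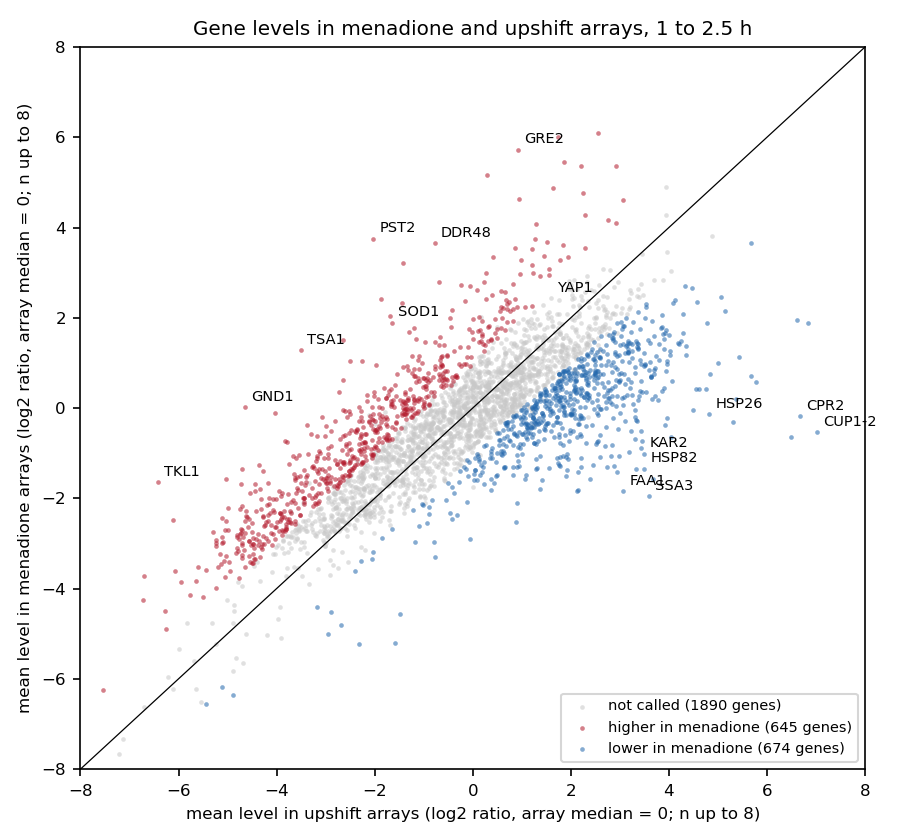
Mean level of each of the 3209 tested genes in the 8 menadione arrays (vertical axis) against its mean level in the 8 upshift arrays (horizontal axis), both as log2 ratio to the common reference less the array median. The 645 genes called higher in menadione lie above the diagonal and the 674 called lower lie below it, and CUP1-2 (difference -7.56) reaches farther from the diagonal than PST2 (5.78).

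The widest difference of all belonged to the metallothionein genes CUP1-2 (YHR055C) and CUP1-1 (YHR053C), which encode the small cysteine-rich protein that binds copper. In the 8 menadione arrays CUP1-2 ran from -2.0 to 0.50 with a median of -0.53. In the 8 upshift arrays it ran from 5.65 to 8.14 with a median of 7.09. The groups lay more than 5 log2 units apart at their closest arrays. The difference was -7.56 ± 0.35 (SE), 189-fold lower in menadione, with a limma adjusted p of 1.94e-10. CUP1-1 differed by -7.18 ± 0.27 (145-fold). The 2 genes are near-identical copies, and probes for one also read the other. Before menadione, in the 6 T0 arrays, CUP1-2 stood at -1.92 ± 0.49 (SD), nearer to the menadione levels of this course than to its upshift levels. CRS5, the other copper-binding metallothionein of yeast, was lower by a smaller margin (-3.46 ± 0.16, 11.0-fold), with its probe 2 numbers after that of STI1, itself at least 8-fold lower. All 4 tested members of the metallothionein and copper list, of 8 on the array, were lower in menadione, beside 21.0% of all tested genes.

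The CUP1 genes also head a run of neighbouring probes. By probe number they are followed by CPR2, a cyclophilin (-6.85), FYV4 (-4.80), GIC1, an effector of the polarity GTPase Cdc42 (-2.76), QNS1, a NAD synthetase (-4.68), and PTC7, a mitochondrial phosphatase (-4.02). Over genes read by a single probe, the differences at probe numbers 1 apart correlated at 0.422 (1868 pairs), those 2 apart at 0.214 and those 3 apart at 0.101. The correlation is across genes, which are not independent replicates. Of the probes directly after a gene that was at least 8-fold higher, and themselves under 8-fold, 14 of 20 (70.0%) were called higher, against 6 of 16 (37.5%) directly before one. After a gene at least 8-fold lower, 28 of 43 (65.1%) were called lower, against 10 of 37 (27.0%) before one. The background was 20.1% for higher and 21.0% for lower. How probe numbers relate to positions on the slide is not given in the sources used here, and the part of probe order in these differences was not tested. Such neighbours are pointed out below where a named gene is one. In all, 28 genes called higher and 76 called lower have a probe 1 to 3 numbers after a gene at least 8-fold different in the same direction.

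**Figure D2:**
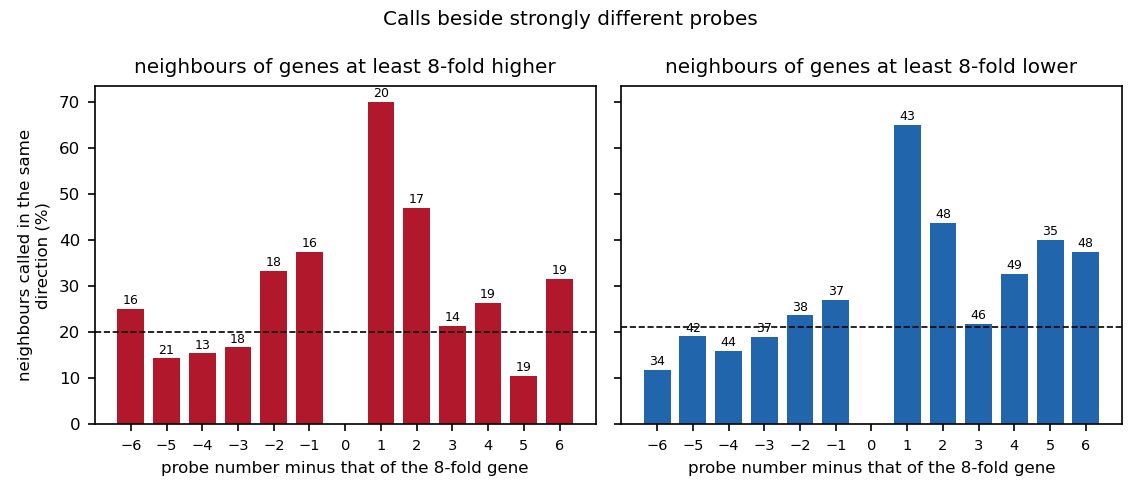
Percent of genes called in the same direction (vertical axis) by the offset of their probe number (horizontal axis, in probe numbers before or after) from a gene at least 8-fold higher or at least 8-fold lower in menadione, with the number of neighbours on each bar and the percent over all tested genes as a dashed line. The bars directly after such a gene reach 70.0% and 65.1%, and those directly before it 37.5% and 27.0%.

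Chaperones of the Hsp90 and Hsp70 systems were lower in menadione as groups. Of 9 tested members of the Hsp90 list (13 on the array), 7 were lower and 0 higher, with a median difference of -3.28 where the median over all tested genes was 0.03. The lower share was 77.8%, against 21.0% over all genes. HSP82, the heat-inducible Hsp90, ran from -1.78 to -1.10 (median -1.31) in menadione and from 2.48 to 4.96 (median 3.35) in the upshift. Every menadione array lay below every upshift array. The difference was -4.84 ± 0.24 (28.6-fold lower, limma adjusted p = 3.41e-10), and T0 was at -1.91 ± 0.25 (SD, n = 6). STI1, which links Hsp70 to Hsp90, was 17.9-fold lower (-4.16 ± 0.18). CPR6, an Hsp90-bound cyclophilin, was 18.2-fold lower (-4.19 ± 0.26), with its probe 2 numbers after that of TUB4, itself among the genes at least 8-fold lower. HSP82 has a near-identical copy, HSC82, so its probe may read both.

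Of 14 tested members of the Hsp70 list (17 on the array), 10 were lower and 2 higher, with a median difference of -3.35. These shares were 71.4% and 14.3%, against 21.0% and 20.1% over all genes. SSA3, a cytosolic Hsp70 that is abundant in stationary phase, ran from -2.93 to -1.29 (median -1.98, 7 arrays) in menadione and from 2.97 to 4.28 (median 3.64) in the upshift. Its difference of -5.48 ± 0.21 (44.5-fold, limma adjusted p = 1.20e-10) was set against a T0 level of 1.59 ± 0.33 (SD, n = 6), so that menadione lay below T0 and the upshift above it. Exchange factors of Hsp70 were lower too. FES1 was 35.8-fold lower (-5.16 ± 0.21) and SSE2, an Hsp110, was 25.3-fold lower (-4.66 ± 0.26). KAR2, the Hsp70 of the endoplasmic reticulum, was 22.6-fold lower (-4.50 ± 0.18). The 2 members called higher were SSB1 (1.41 ± 0.25) and SSB2 (1.49 ± 0.31), the Hsp70s that sit on translating ribosomes, and they are near-identical to each other. Both calls were lost under quantile normalization and when the arrays were scaled to one spread. SSB1 ran from -4.43 to -2.06 in menadione and from -5.76 to -3.46 in the upshift, so the groups overlapped. The SSB2 groups overlapped as well. ZUO1, the ribosome-bound J protein that works with SSB1 and SSB2, was also higher (2.0 ± 0.21, 3.99-fold) without overlap, a call lost when the arrays were scaled to one spread.

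Disaggregases and small heat shock proteins followed the same order, with 7 of 11 tested members lower, 1 higher and a median difference of -3.16. In shares this was 63.6% and 9.09%, against 21.0% and 20.1% over all genes. HSP26, a small heat shock protein, ran from -0.53 to 0.25 (median -0.19, 7 arrays) in menadione and from 4.11 to 5.50 (median 4.80, 7 arrays) in the upshift, a difference of -4.88 ± 0.19 (29.4-fold). BTN2, which collects misfolded proteins, was 31.1-fold lower (-4.96 ± 0.24) and HSP42, a second small heat shock protein, 19.5-fold lower (-4.28 ± 0.20). HSP104, the disaggregase, ran from -1.92 to -0.73 in menadione and from 1.73 to 3.73 in the upshift (-4.16 ± 0.20, 17.8-fold). One of its 17 probes directly follows that of SSA2, a further Hsp70. The member called higher was HSP33, a member of the Hsp31 family (2.35 ± 0.68, adjusted p = 0.00891), whose groups overlapped.

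Among J proteins and chaperonins the difference was carried by fewer members. Of 16 tested, 6 were lower and 1, ZUO1, was higher, with a median of -0.40. APJ1 was 19.3-fold lower (-4.27 ± 0.17) and MDJ1, the mitochondrial J protein, 15.4-fold lower (-3.94 ± 0.36). SIS1, an essential cytosolic J protein, was 19.7-fold lower (-4.30 ± 0.47), but its groups overlapped through one array. Replicate 1 at 2.5 h of menadione read 3.58 for SIS1, while the other 7 menadione arrays lay between -1.88 and -0.46. Without that array the difference was -4.79. In the endoplasmic reticulum list, 2 of 14 tested members (14.3%) were lower and 1 (7.14%) was higher, with a median of -0.21. Over all genes 21.0% were lower and 20.1% higher. Beside KAR2, the other lower member was ERO1, the oxidase that drives disulphide formation (-2.91 ± 0.44, with overlap). The higher member was SEC63, a translocation subunit (2.10 ± 0.45).

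**Figure D3:**
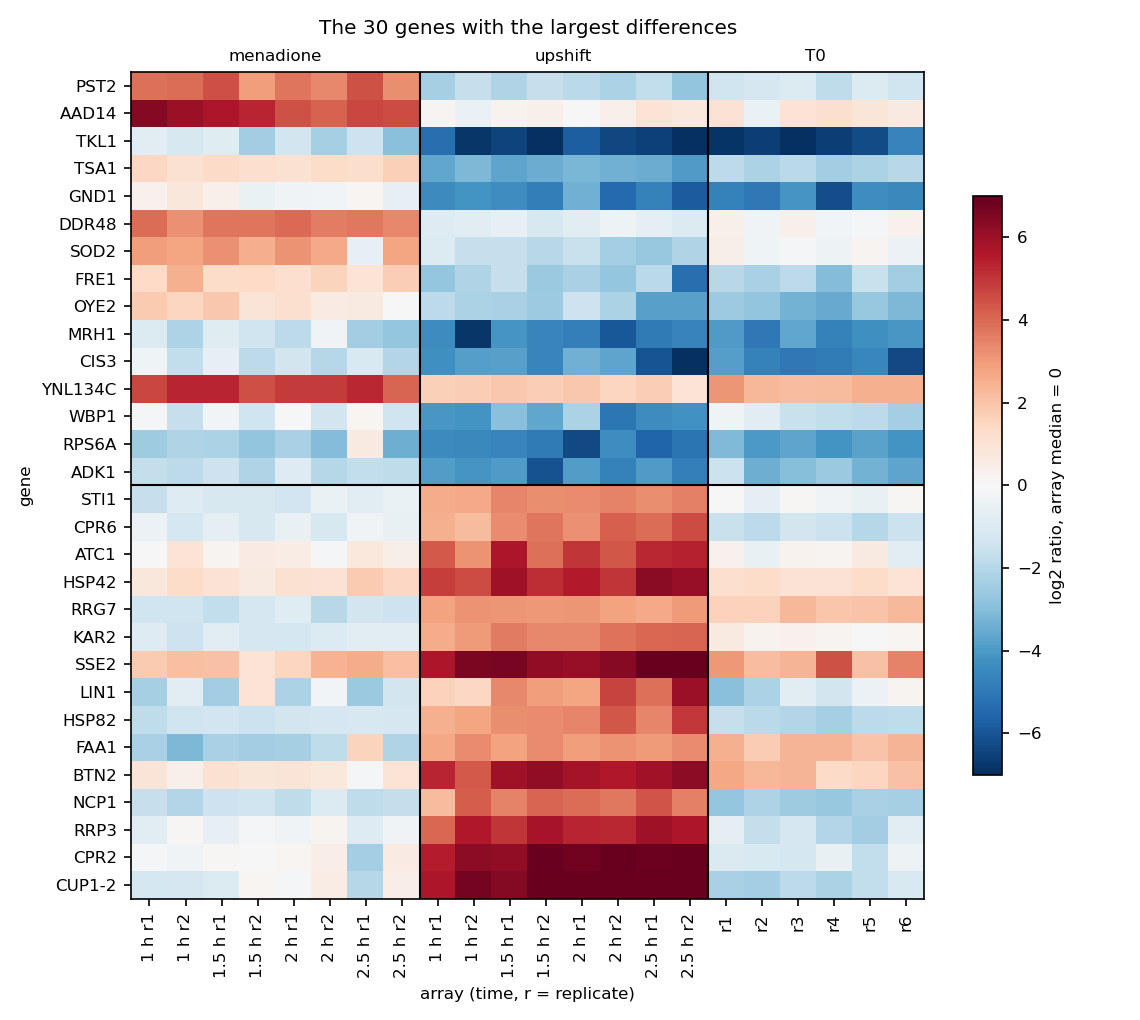
Levels (colour, log2 ratio to the reference less the array median, values beyond -7 and 7 at the end colours) of the 15 genes with the largest difference in each direction among those measured on all 16 arrays with no overlap, in rows, over the 8 menadione, 8 upshift and 6 T0 arrays, in columns. By that choice every menadione column lies on one side of every upshift column, and the T0 columns lie near the menadione columns for CUP1-2 (-1.92 ± 0.49) and nearer the upshift columns for PST2 (-1.27 ± 0.33).

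The markers of stationary phase were lower in menadione. Of 16 tested members of that list (21 on the array), 13 were lower and 1 higher, with a median difference of -2.84. Over all genes 21.0% were lower and 20.1% higher. SPG4, a member of the list, ran from -1.18 to 1.01 (median 0.13, 7 arrays) in menadione and from 3.78 to 5.24 (median 4.51) in the upshift, with T0 at 3.23 ± 0.59 (SD, n = 6). The median member stood 2.60 log2 units below T0 in menadione and 0.28 above T0 in the upshift. Of 31 tested targets of Msn2 and Msn4, 18 were lower and 2 were higher (median -1.57, or -1.60 relative to all genes, and -0.95 there with arrays scaled to one spread). These lists share members with the chaperone lists, so the counts are not separate evidence. One of the 2 higher targets was DDR48, a stress protein named for its response to DNA damage, which ran from 3.20 to 3.96 in menadione and from -1.13 to -0.36 in the upshift (4.43 ± 0.17, 21.5-fold).

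Over all tested genes 21.0% were lower and 20.1% higher, the background for each list in this paragraph. Of 18 tested genes of fatty acid activation and peroxisomal beta-oxidation, 9 were lower and 1 higher in menadione (median -0.94). Relative to all genes that median was -0.98, and -0.37 without replicate 1 of the upshift. FAA1, a long-chain acyl-CoA synthetase, was 30.2-fold lower (-4.91 ± 0.44). The other 7 menadione arrays lay between -3.16 and -1.79, and its replicate 1 at 2.5 h read 1.57, still below the lowest upshift array at 2.73. IDP3, which makes NADPH inside peroxisomes, was 12.1-fold lower (-3.59 ± 0.23), with its probe directly after that of SIS1, and SPS19, which that NADPH serves, was 7.85-fold lower (-2.97 ± 0.23). CAT2, a carnitine acetyltransferase, was the member higher in menadione (2.19 ± 0.30), and its probe directly follows that of TSA1. In the trehalose and glycogen list 6 of 14 were lower and 1 higher (median -0.74, or -0.77 relative to all genes, and -0.06 there with arrays scaled to one spread), with TPS1, the trehalose-6-phosphate synthase, at -2.24 ± 0.22. In the hexose and phosphate transporter list 7 of 16 were lower and 1 higher (median -0.62, or -0.65 relative to all genes, and -0.05 there without probes 1 to 3 numbers after an 8-fold difference), led by HXT5, a hexose transporter of slow-growing cells (-2.94 ± 0.16, 7.68-fold).

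Of 24 tested ubiquitin genes, 10 were lower and 4 higher (median -0.73, or -0.76 relative to all genes, and -0.28 there under quantile normalization). The conjugating enzymes UBC4 (-2.58 ± 0.23), UBC8 (-2.57 ± 0.15) and UBC11 (-2.57 ± 0.31) led the lower side, each without overlap. RAD6, the conjugating enzyme of DNA damage tolerance, was 4.21-fold lower (-2.07 ± 0.25), and CDC34, that of the cell cycle ligase SCF, was 3.95-fold lower with overlap (-1.98 ± 0.38). UBI4, the stress polyubiquitin gene, was 2.97-fold lower (-1.57 ± 0.20), a call lost when arrays were not centred. Its T0 level of 2.18 ± 0.34 was close to the upshift median of 2.24, and the menadione median was 0.71. Of its 17 probes, 16 directly follow a probe of SSA4, a heat-inducible Hsp70. UBA1, the activating enzyme, was higher by 2.58 ± 0.25 (5.97-fold). Of 34 proteasome subunits 6 were higher and 3 lower (median -0.07, 17.6% and 8.82% against 20.1% and 21.0% over all genes), and that median changed sign relative to all genes under quantile normalization (0.31).

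On the other side, quinone and aldehyde reductases were higher in menadione. Of 13 tested members (22 on the array), 10 were higher and 1 lower, with a median difference of 1.92. These shares were 76.9% and 7.69%, against 20.1% and 21.0% over all genes. PST2, a flavodoxin-like quinone reductase, ran from 2.91 to 4.49 (median 3.81) in menadione and from -2.74 to -1.59 (median -2.0) in the upshift. All 8 menadione arrays lay above all 8 upshift arrays, and the difference of 5.78 ± 0.27 (55-fold, limma adjusted p = 1.86e-10) was the largest in this direction among genes with a value in all 16 arrays and no overlap. T0 was at -1.27 ± 0.33 (SD, n = 6), nearer to the upshift. AAD14, an aryl-alcohol dehydrogenase homologue, was 29.1-fold higher (4.86 ± 0.30), GRE2, a methylglyoxal reductase, 28.5-fold (4.83 ± 0.26) and OYE2, the old yellow enzyme, 11.8-fold (3.56 ± 0.24). The lower member was GRE3, an aldose reductase counted among the Msn2 and Msn4 targets (-2.39 ± 0.19, 5.24-fold lower). AAD4 was measured in too few upshift arrays to be tested. It ran from 4.98 to 8.28 in 7 menadione arrays and from 0.30 to 1.53 in 4 upshift arrays.

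Of 10 tested peroxiredoxin, thioredoxin and related genes (13 on the array), 6 were higher and 2 lower (median 1.89). In shares this was 60.0% and 20.0%, beside 20.1% and 21.0% over all genes. TSA1, the main cytosolic peroxiredoxin, ran from 1.04 to 1.65 (median 1.28) in menadione and from -3.98 to -3.16 (median -3.48) in the upshift. Within each course its 8 arrays lay within 1 log2 unit of each other, and the courses differed by 4.78 ± 0.17 (27.5-fold, limma adjusted p = 4.78e-11), with T0 between them at -2.10 ± 0.23 (SD, n = 6). PRX1, the mitochondrial peroxiredoxin, was 7.25-fold higher (2.86 ± 0.31), TRX2, a cytosolic thioredoxin, 5.77-fold (2.53 ± 0.18), and TRR1, the cytosolic thioredoxin reductase, 5.43-fold (2.44 ± 0.20). SRX1, the sulfiredoxin that repairs overoxidised peroxiredoxin, was higher by 3.48 ± 0.73, with a wide spread from 0.32 to 5.73 in menadione and overlap with the upshift. The mitochondrial partners TRX3 (-1.53 ± 0.31, with overlap) and TRR2 (-1.26 ± 0.23) were the 2 lower members. TSA2, the inducible peroxiredoxin, was not tested because 3 upshift arrays measured it. It ran from 2.63 to 7.43 in 8 menadione arrays and from -0.55 to 0.47 in those 3.

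Superoxide dismutases were higher in menadione while catalase genes gave no call. SOD1, the cytosolic copper-zinc enzyme, ran from 1.40 to 2.26 (median 1.90, 7 arrays) in menadione and from -2.04 to -1.42 (median -1.64) in the upshift, a difference of 3.56 ± 0.18 (11.8-fold). SOD2, the mitochondrial manganese enzyme, differed by 4.29 ± 0.38 (19.5-fold). Of the menadione arrays of SOD2, 7 lay between 2.53 and 3.18 and replicate 1 at 2.5 h lay at -0.59, with T0 at -0.09 ± 0.34. CTT1, the cytosolic catalase, had means of 0.62 and 0.68, and CTA1, the peroxisomal catalase, of 2.61 and 2.41. CCP1, the mitochondrial cytochrome c peroxidase, was 5.45-fold higher (2.45 ± 0.33) with overlap, and GPX1, a glutathione peroxidase, was 4.81-fold lower (-2.26 ± 0.29). Over the list of dismutases, catalases and regulators, 5 of 11 were higher and 2 lower (median 0.83), and without ratios of small whole numbers the median was -0.07 relative to all genes. The shares were 45.5% and 18.2%, beside 20.1% and 21.0% over all genes. The transcript of YAP1 itself was not called, at 0.83 ± 0.21 (1.78-fold, limma adjusted p = 0.0041), with menadione arrays from 1.94 to 2.8 and upshift arrays from 1.00 to 2.06. SKN7 was 3.25-fold lower (-1.70 ± 0.21).

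Of 11 tested pentose phosphate pathway genes, 5 (45.5%) were higher and 1 (9.09%) lower, beside 20.1% and 21.0% over all genes. Relative to all genes their median was 0.05, and -0.06 without replicate 1 of the upshift. It rose to 0.55 without replicate 1 of menadione and to 0.93 without replicate 2 of the upshift. Without ratios of small whole numbers it was 1.26. As a plain difference the median was 0.08. The called members were far from that median. TKL1, the main transketolase, ran from -2.92 to -0.72 in menadione and from -7.09 to -5.28 in the upshift (4.79 ± 0.32, 27.6-fold). GND1, the main 6-phosphogluconate dehydrogenase and an NADPH source, ran from -0.56 to 0.79 and from -5.82 to -3.37 (4.66 ± 0.29, 25.3-fold), with its probe 2 numbers after that of OYE2. TAL1, the main transaldolase, was 6.64-fold higher (2.73 ± 0.26). T0 levels of TKL1 (-6.33 ± 0.86) and GND1 (-4.82 ± 0.74) lay within the upshift range. The lower member was NQM1, the transaldolase paralogue of stationary cells (-2.04 ± 0.19). ALD6, the cytosolic aldehyde dehydrogenase and a further NADPH source, was 10.1-fold higher (3.34 ± 0.29), and IDP2, the cytosolic NADP-dependent isocitrate dehydrogenase, 4.99-fold higher (2.32 ± 0.25).

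Glutathione genes were divided, with 5 of 16 (31.25%) higher, 3 (18.75%) lower and a median of -0.06, beside 20.1% and 21.0% over all genes. Leading the higher side were ECM4, a glutathione transferase (3.15 ± 0.50, with overlap), and GRX2, a glutaredoxin (3.03 ± 0.29). ECM38, the enzyme that breaks down glutathione in the vacuole, followed (2.75 ± 0.29). The ECM38 probe directly follows that of YLR297W, itself at least 8-fold higher. In the drug efflux list 4 of 16 were higher and 2 lower, shares of 25.0% and 12.5% beside the 20.1% and 21.0% over all genes. YCF1, the vacuolar pump for glutathione conjugates, ran from 1.77 to 3.31 (7 arrays) and from -1.69 to -1.05 (6 arrays), 15.6-fold higher in menadione (3.96 ± 0.26), while ATR1 (3.05 ± 0.45) and PDR5 (2.19 ± 0.20), both multidrug transporters, were also higher. TPO3, a polyamine exporter, was lower (-2.75 ± 0.34), with its probe directly after that of PIN3. FLR1, a multidrug transporter, had 7 menadione values from 1.47 to 6.17 and 0 upshift values, and was not tested. FRE1, the ferric and cupric reductase of the plasma membrane, was 17.6-fold higher (4.14 ± 0.40), in an iron list of 19 with 4 higher and 2 lower, shares of 21.1% and 10.5%.

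Lysine synthesis had 3 of 5 tested members (60.0%) higher and 1 (20.0%) lower (9 on the array), beside 20.1% and 21.0% over all genes. LYS20, the homocitrate synthase that opens the pathway, ran from 1.37 to 2.89 in menadione and from -1.56 to 0.01 in the upshift (2.60 ± 0.29, 6.08-fold). LYS14, the activator of the pathway, was 7.66-fold higher (2.94 ± 0.32), with its probe directly after that of PST2. LYS2, which the strain carries in mutated form, was the lower member (-2.08 ± 0.28), with its probe directly after that of FES1. LYS1, the last enzyme, had 5 upshift values and was not tested. Its 8 menadione arrays ran from -1.74 to 1.79 and those 5 from -4.01 to -1.72.

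Of 135 tested cytosolic ribosomal protein genes (136 on the array), 86 (63.7%) were higher and 1 (0.74%) was lower. Over all genes 20.1% were higher and 21.0% lower. The courses did not overlap for 65 of the 135, beside 26.5% of all tested genes, and the median difference was 1.28. Relative to all genes the median was 1.25, and it was 0.35 under quantile normalization and 0.18 with arrays scaled to one spread. The array medians over the list lay between -3.26 and -2.20 in menadione, between -4.47 and -3.58 in the upshift and between -4.12 and -3.56 at T0. RPL10, a protein of the large subunit, ran from -1.56 to -0.55 and from -4.30 to -3.07 (2.60 ± 0.21, 6.06-fold). RPS6A, of the small subunit, differed by 2.77 ± 0.48, with replicate 1 at 2.5 h of menadione at 0.63 and the other 7 between -3.41 and -2.13. The lower gene was RPS27A (-1.96 ± 0.18). Many of these genes exist as near-identical pairs whose probes read both copies. RPL38 (0.52 ± 0.20, 1.44-fold) was not called. Of 34 translation factors 11 (32.4%) were higher and 7 (20.6%) lower. Their median was 0.67, but -0.05 relative to all genes with arrays scaled to one spread. NIP1, a subunit of initiation factor eIF3, differed by 2.68 ± 0.25, and TEF1, an elongation factor 1A gene with a near-identical copy, by -0.89 ± 0.27 (1.86-fold, not called). Of 37 mitochondrial ribosomal proteins 6 (16.2%) were higher and 10 (27.0%) lower, with a median of -0.23. Leaving out replicate 1 of menadione turned the sign of that median relative to all genes (0.10).

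Genes of central carbon metabolism and respiration stood beside the 20.1% higher and 21.0% lower over all genes as follows. Of 18 tricarboxylic acid cycle genes 8 were higher and 2 lower (median 0.83), of 36 nuclear oxidative phosphorylation genes 12 were higher and 4 lower (median 0.28, or 0.25 relative to all genes, and 1.05 there with arrays scaled to one spread), and of 17 genes of gluconeogenesis, the glyoxylate cycle and acetate use 8 were higher and 3 lower (median 0.85, or 0.82 relative to all genes, and 0.33 there without ratios of small whole numbers). ACO1, the aconitase, an iron-sulphur enzyme sensitive to superoxide, ran from 2.45 to 3.79 and from -0.33 to 0.81 (2.73 ± 0.24, 6.65-fold). CYC1, the main cytochrome c, was 25.1-fold higher (4.65 ± 0.37), while CYC7, its minor isoform, was 11.3-fold lower (-3.49 ± 0.49). PCK1, which commits carbon to gluconeogenesis, was 6.53-fold higher (2.71 ± 0.55) with overlap, because replicate 1 at 2.5 h lay at -2.37 and the other 7 menadione arrays between 0.66 and 3.04. Glycolysis had 2 of 19 higher and 3 lower (median -0.38, or -0.41 relative to all genes, and -2.06 there with arrays scaled to one spread). Cell wall genes had 13 of 37 higher and 7 lower (median 0.85, but -0.08 relative to all genes with arrays scaled to one spread), with CIS3, a heat-stable wall protein, at 3.35 ± 0.46 and SPI1, a GPI-anchored wall protein of stressed cells, at -2.71 ± 0.31.

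**Figure D4:**
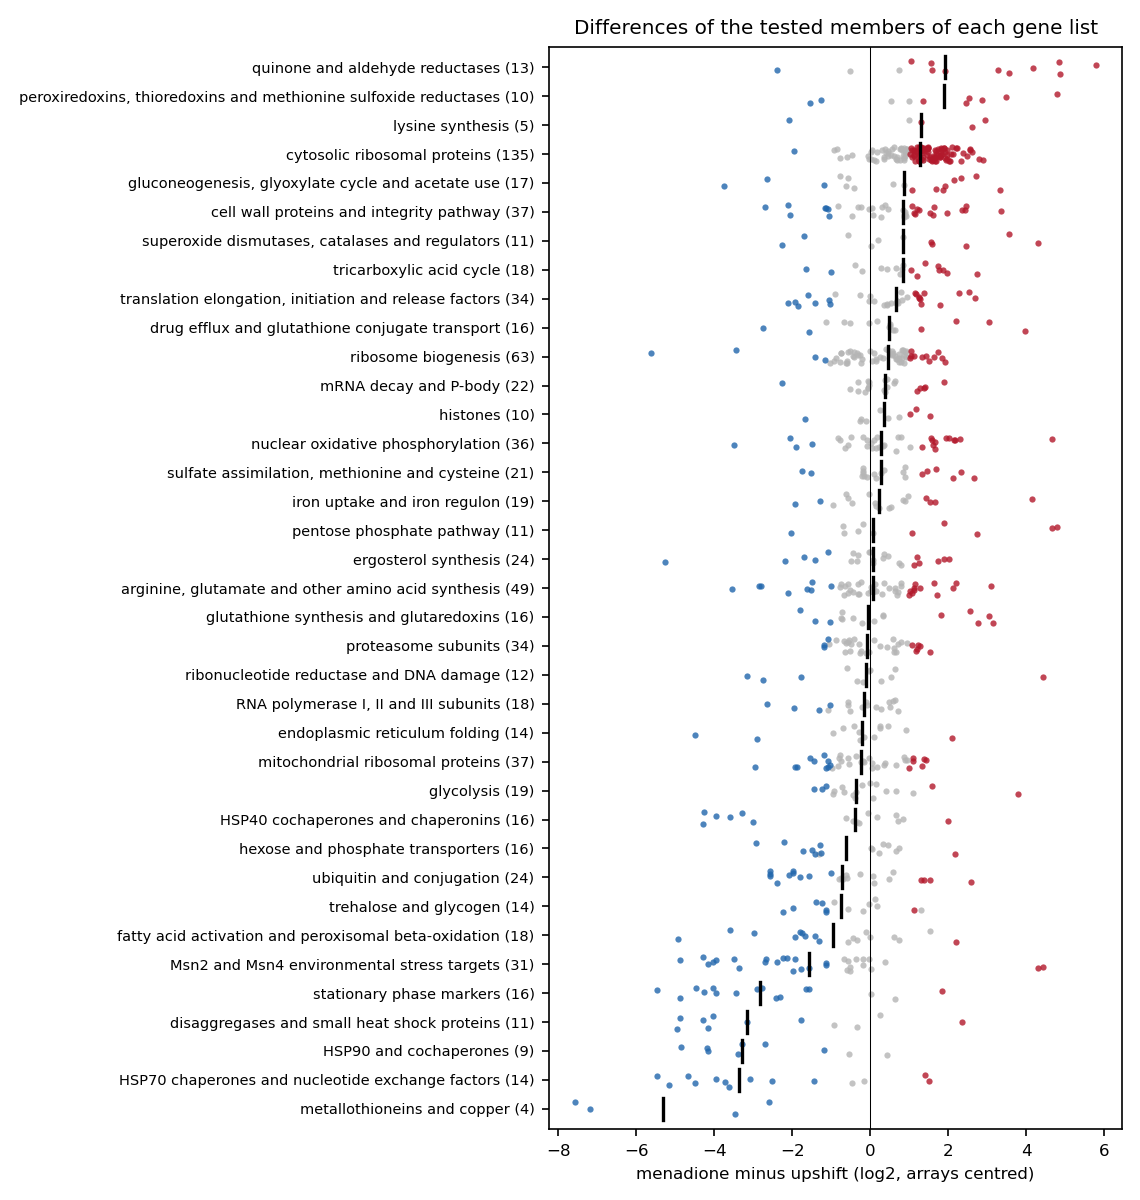
Difference between the courses (menadione minus upshift, log2) of every tested member of each gene list with at least 4 tested members, one point per gene, with the list's median as a black bar. The metallothionein, Hsp70, Hsp90 and disaggregase lists have medians between -5.32 and -3.16, and the quinone reductase, peroxiredoxin and cytosolic ribosomal protein lists have medians of 1.92, 1.89 and 1.28.

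Further named genes with large differences were these. On the lower side, RRP3, an RNA helicase of ribosomal RNA processing, ran from -0.92 to 0.19 in menadione and from 4.04 to 5.94 in the upshift (-5.63 ± 0.26, 49.6-fold). NCP1, the reductase that feeds cytochrome P450 enzymes of ergosterol synthesis, was 38.3-fold lower (-5.26 ± 0.27), LIN1 25.7-fold (-4.68 ± 0.62), RRG7 20.5-fold (-4.36 ± 0.18) and ATC1 18.3-fold (-4.20 ± 0.30), the last with its probe after that of HSP42. The acetate transporter ADY2 was lower with overlap (-3.74 ± 0.59), and CAT8, an activator of gluconeogenic genes, and SED1, a wall protein of stationary cells, were lower without overlap (-2.64 ± 0.29 and -2.10 ± 0.33). On the higher side were the membrane protein MRH1 (3.45 ± 0.40), WBP1, a subunit of oligosaccharyl transferase (3.11 ± 0.40), YNL134C (3.24 ± 0.21), ADK1, the adenylate kinase (2.75 ± 0.30), ATP2, a subunit of the mitochondrial ATP synthase (2.30 ± 0.26), LPD1, a subunit of mitochondrial 2-oxoacid dehydrogenases (1.86 ± 0.26), and NCA3 (3.55-fold), all without overlap.

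Of 28 genes of the ribonucleotide reductase and DNA damage list, 12 were tested. Against 20.1% higher and 21.0% lower over all genes, 1 (8.33%), DDR48, was higher and 3 (25.0%) were lower (median -0.11). The 3 were RAD16, of nucleotide excision repair (-3.16 ± 0.21), RAD53, the checkpoint kinase (-2.75 ± 0.67), and DIF1, a regulator of ribonucleotide reductase (-1.78 ± 0.37), with overlap for RAD53 and DIF1. DNA2, a helicase and nuclease of DNA replication, differed by 0.27 ± 0.30 (limma adjusted p = 0.468), and DIN7, a mitochondrial nuclease induced by DNA damage, by -0.33 ± 0.27 (adjusted p = 0.309). NTG1, a DNA glycosylase of base excision repair, had 8 menadione values from -0.08 to 2.60 and 2 upshift values of -0.14 and 1.25, and DOA1, a ubiquitin-binding protein, had 5 and 4 values, so neither was tested.

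For no gene was the difference between the courses called as changing from 1 to 2.5 h. With the product of course and time in the model, 0 of 3209 genes (0%) passed an adjusted p of 0.05 in limma, 237 did so before adjustment, and the smallest adjusted p was 0.163. The estimates of single genes varied between times, with no change called. The difference of AAD14, at this smallest value, was 6.36 at 1 h and 3.77 at 2.5 h. That of ADY2 was -5.72 and -1.01 (limma adjusted p = 0.359), with 1 outlying menadione array at 2.5 h. Within single times, with 2 arrays against 2, 231 genes were higher and 303 lower at 1 h, 241 and 357 at 1.5 h, 184 and 334 at 2 h, and 309 and 461 at 2.5 h. Of the 645 genes higher over all times, between 632 and 643 were higher in mean at each time, of 639 to 645 measured there. For the 674 lower genes the counts were 667 to 673 of 669 to 674.

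**Figure D5:**
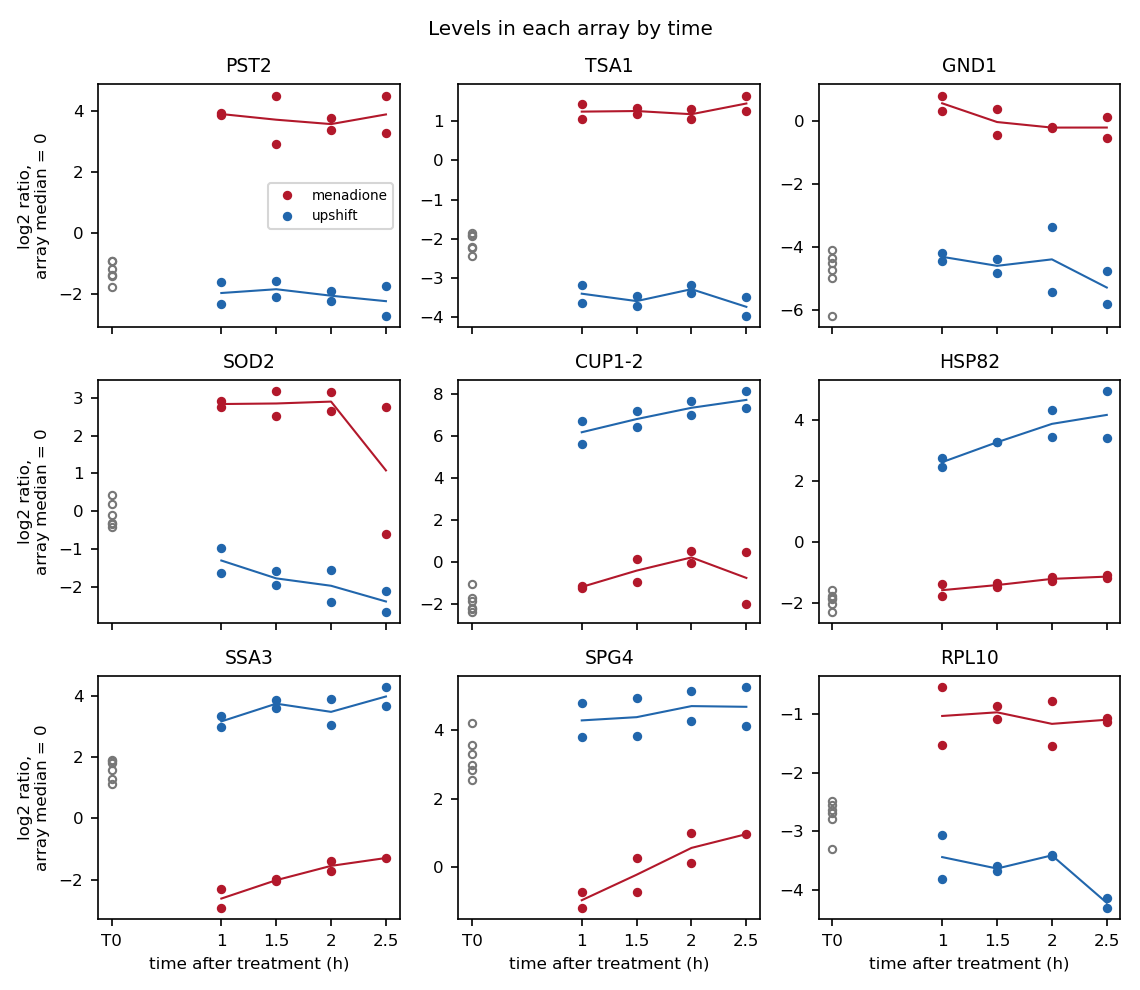
Level (log2 ratio to the reference less the array median) of 9 genes against time in hours, one point per array, for the menadione course, the upshift course and the T0 arrays at time 0. PST2, TSA1, GND1, SOD2 and RPL10 lie higher in menadione and CUP1-2, HSP82, SSA3 and SPG4 higher in the upshift at every time, with SOD2 in replicate 1 at 2.5 h of menadione (-0.59) the exception in spread.

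The T0 arrays show where each course stood relative to cells before menadione. They belong to the menadione course and enter both differences from T0, so these values stand side by side with no test. Moves from T0 were counted in a single direction per course, menadione in the direction of the call and the upshift in the opposite one. Of the 640 higher genes with at least 4 T0 values, 289 met only the menadione condition (2-fold or more above T0). Only the upshift condition (2-fold or more below T0) was met by 94, both by 37 and neither by 220. For the 665 lower genes, with the directions reversed, the counts were 318, 165, 51 and 131. Moves of both courses from T0 in the same direction were therefore not counted as both. The median member stood 2.78 (Hsp70 list) and 3.43 (Hsp90 list) above T0 in the upshift, against 0.24 and 0.15 in menadione, while in the J protein and chaperonin list it differed from T0 by 0.13 and -0.06. The median quinone reductase differed from T0 by 2.03 in menadione and by -0.63 in the upshift, the median of the peroxiredoxin list by 1.54 and -0.91, and the median cytosolic ribosomal protein by 1.0 and -0.25.

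A second menadione course, sampled in 1-min steps, has 2 arrays at 1 h on another array design. Its values were normalised apart, so the levels were set side by side with no test. Of the genes called higher, the mean of these 2 arrays lay nearer to the menadione mean than to the upshift mean for 427 of 580 measured (73.6%), and of those called lower for 434 of 560 (77.5%), where genes not called gave 962 of 1576 (61.0%). The groups differed in this. Cytosolic ribosomal proteins lay nearer to menadione in 81 of 82, the Hsp70 list in 9 of 10 and the Hsp90 list in 5 of 6. Quinone reductases did so in 3 of 10, the peroxiredoxin list in 4 of 8, the pentose phosphate pathway in 2 of 5 and the stationary phase markers in 7 of 13. TSA1 stood at -2.49 in those arrays and GND1 at -3.41 in the 1 array that measured it, closer to their upshift levels, PST2 at 1.00, between the courses, and HSP82 at -0.45, on the menadione side. CUP1-2 stood at 2.65 and 2.68 in the 2 arrays, above its highest array of the first menadione course (0.50) and below its lowest upshift array (5.65). Whether the array design has a part in these levels was not tested.

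Some transcripts were measured mainly in one course. Of the genes on the array, 362 had at least 6 menadione values and at most 2 upshift values, and 5 had the reverse. They carry no test, and the lower number of usable genes on the upshift arrays moves with this count.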

How the data were processed

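The deposited values were taken per the labels and the study's methods to be linear Cy5 to Cy3 ratios, background-subtracted, with flagged spots removed by the authors from GenePix output. A spiked plant RNA was used by the authors for normalization, and whether the deposited ratios carry that step is not given in the sources used here. Such a ratio can fall at or below 0 after background subtraction. Here those values, and the marker value 100000 for an unusable denominator, were treated as missing, log2 was taken, probes of one gene were averaged and each array was centred on its median. Probes were named by the platform annotation (5904 of 6819 with 1 gene). Of the tables' columns, 195 were not used. The number of arrays limits the precision, and many ratios were quotients of small whole numbers (25.1% of values in menadione and 34.9% in the upshift), which are coarse.

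Genes with at least 6 of 8 values in each course were fitted in limma 3.58.1 (R 4.3.3; lmFit and eBayes) with course and time (4 levels) as terms, and p-values were adjusted by Benjamini-Hochberg over the 3209 genes. Calls needed an adjusted p under 0.05 and 2-fold. The change over time was tested with the product of course and time in hours. Named genes were the 15 largest non-overlapping differences of each sign with 16 values, up to 3 called members of each list and direction, and genes the study names. From these, 103 are given. AAD4, FLR1, LYS1, TSA2, CTT1, CTA1, RAD16, RAD53, DIF1 and the neighbours of the CUP1 probes were added after their values were seen. The comparison, members and gene lists were chosen with earlier results of these data known. The scripts were tested on simulated data.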

Additional observations from a re-analysis of the deposited data

Results flagged for a closer look

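Of 206 sets of 8 arrays checked for a single outlying array by the gap between the most extreme array and the next, 25 had one, where chance gives about 1 in 20. Replicate 1 at 2.5 h of menadione held 11 of the gene values. It was the highest array of its course for ADY2 (4.15, the other 7 from -2.87 to 0.30), FAA1 (1.57), PRX1 (6.01), RPS6A (0.63), SEC63 (1.70), SIS1 (3.58) and TPS1 (0.37), and the lowest for CPR2 (-2.37), PCK1 (-2.37), SOD2 (-0.59) and UBC11 (-1.24). Its mean correlation with the other arrays of its course was 0.598, and that of replicate 2 at 1.5 h of the upshift stood out on the high side, at 0.946 against 0.931 to 0.937.

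Replicate 2 at 2.5 h of the upshift held 6 of the values. It was the highest upshift array for CYC7 (5.51) and UBC11 (3.70) and the lowest for FRE1 (-5.27, the other 7 from -2.70 to -1.61), LYS20 (-1.56), SSB2 (-6.27) and YNL134C (0.98). Single arrays also stood low for ERO1 (3.97) and NCP1 (2.20) in replicate 1 at 1 h of the upshift, BTN2 (4.32) in replicate 2 at 1 h, ADK1 (-6.09) in replicate 2 at 1.5 h and TRX3 (2.38) in replicate 1 at 2.5 h, and high for DIN7 (-0.10) in replicate 2 at 1.5 h of menadione.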

How the results depend on the processing

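The 645 higher and 674 lower genes became 1072 and 366 when arrays were not centred, where the median of all genes shifted to 0.60. Higher genes fell to 408 under quantile normalization (671 lower) and to 404 with arrays scaled to one spread (641 lower), where the medians of all genes were -0.15 and -0.14. With fewer genes tested, a value in all 16 arrays gave 314 and 386 of 1634, and leaving out ratios of small whole numbers 259 and 420 of 1696. The causes of the first 3 shifts were not tested. Leaving out 1 array or 1 replicate series gave 513 to 749 higher, 620 to 737 lower, and 0 to 1 genes changing over time, the 1 without replicate 2 at 2.5 h of menadione. With each replicate series as a random block (correlation 0.315), 533 were higher, 604 lower and 4 changed over time. The means of each replicate series gave 484 higher and 549 lower. Whether equal replicate numbers pair arrays of the 2 courses was not settled. Correlations of replicate deviations between courses ran from 0.005 to 0.34, with a median of 0.165 and 11 of 16 over 0.1. Within courses they were higher, with medians of 0.358 in menadione and 0.385 in the upshift. The replicate block gave 645 higher and 674 lower. Leaving out probes 1 to 3 numbers after an 8-fold difference gave 602 and 595 of 2999. This alternative, the small whole number ratios, the scaling to one spread and array weights were chosen after seeing the data. Of 98 called genes among the 103 named, 88 lost their call under none of the alternatives that could be run for them (20 to 30 each) and none reversed. Calls were lost for ECM38 and GRX2 with values at or below 0 set to a floor, for HSP33 with the floor, without replicate 1 of menadione and without replicate 2 of the upshift, for NCA3, SSB1 and SSB2 under quantile normalization and one spread, for ZUO1 and TRX3 with one spread, for TRR2 uncentred or without replicate 1 of the upshift, and for UBI4 uncentred. Arrays with few usable genes limit what can be tested.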
